A study of Homo sapiens with 4 samples.

Results

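The repressor gene REST and 9 genes of the neuronal cytoskeleton and secretory vesicles were followed across 4 lung adenocarcinoma cell populations. The 10 genes (REST, NEFH, NEFM, NEFL, MAP2, SNAP25, SYP, CHGA, BEX1 and NTS) were chosen by name, with earlier results of these data known. All 19 probe sets annotated to one of them alone were used, out of 54675 probe sets and 19741 genes on the array. The populations came from CL1-0, a human lung adenocarcinoma line, and CL1-5, its more invasive subline. CL1-5 carried either a control shRNA or an shRNA against G9a, and CL1-0 carried either a control vector or HA-tagged G9a. G9a is a histone H3 lysine 9 methyltransferase encoded by EHMT2. All 4 populations were stably transduced, were kept in puromycin for 2 weeks and were read on 1 Affymetrix array each. With 1 array per group the G9a comparisons have no replicate and carry no p-value, and precision is limited by having 4 arrays in all.

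REST, also called NRSF, is a zinc finger repressor that binds RE1 elements and keeps neuronal genes silent in non-neuronal cells. It works through corepressors, among them the CoREST and SIN3 complexes, which bring in histone deacetylases, the demethylase KDM1A and G9a itself. Neurofilament chains, MAP2, the SNARE protein SNAP25, the vesicle protein synaptophysin and the granule protein chromogranin A are classical products of neurons and neuroendocrine cells, and several of their genes carry RE1 elements. In lung tumours, synaptophysin and chromogranin A are used as markers of neuroendocrine differentiation.

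Values are MAS5 signals on a linear scale as deposited, with 1 signal per probe set and array. Signals at or below 3.35 (the 25th percentile of all values) were set to that floor for ratios, and a gene counted as measured in a comparison when its brighter array reached 12.5, the median of all values. A gene is represented by its brightest probe set unless another is named. Array medians ran from 11.3 to 14.9, and the G9a shRNA array was the brightest. Its median gene had a log2 ratio of 0.42 over the control, against -0.08 for HA-G9a over the vector, so ratios called relative have the median gene subtracted. The targeted gene EHMT2 had signals of 376 (control) and 28.1 (G9a shRNA) in CL1-5, and of 420 (vector) and 862 (HA-G9a) in CL1-0.

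The largest differences of these genes lay between the lines. NEFH, MAP2 and NTS were bright in CL1-0 and near or below the floor in CL1-5, and CHGA and BEX1 were also lower in CL1-5, whereas REST had similar signals in the control populations of both lines. With both arrays of CL1-5 set against both arrays of CL1-0 in limma, 5 of the 10 genes were lower in CL1-5 at an adjusted p under 0.05 and 0 were higher. Over all 13953 genes tested, 1.48% were called lower and 1.43% higher. Of the 5, NEFH, MAP2, NTS and CHGA passed the filter only through the CL1-0 arrays, where they are high. They had to differ to be tested, so their count is a description. The same holds for the confidence intervals, the adjusted p and the shares of genes with a larger difference given for these genes below. With no filter on low values limma called 0 of the 10, with adjusted p of 0.0726 for NEFH and 0.0827 for MAP2. At an unadjusted p under 0.05, 6 of the 10 were lower, against 7.01% of genes tested, and 0 higher, against 13.5%. By size alone, 9 of the 10 were at least 2-fold lower in CL1-5, against 8.51% of genes tested, and 0 at least 2-fold higher, against 15.3%. For 8 of those 9, both CL1-5 signals also lay below both CL1-0 signals, as in 7.66% of genes tested. Because the 10 genes were chosen with earlier results of these data known, the counts beside these shares are a description of the set. REST was the gene short of 2-fold, and SYP and NEFM were barely past it. Each line is represented by its control and its altered population, and whatever G9a did therefore counts as spread in this test. Both CL1-5 populations carried an shRNA and both CL1-0 populations an expression vector. Line and construct type therefore cannot be told apart in any difference given between the lines, also with the control populations only. The labels give no replicate culture of any of the 4 populations, so the p-values measure the spread between these arrays alone.

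NEFH, the heavy neurofilament chain of large axons, read 0.755 in the CL1-5 control and 3.63 with the G9a shRNA, against 831 with the vector and 1314 with HA-G9a. Every CL1-0 signal lay far above both CL1-5 signals, and the second NEFH probe set gave 0.775 and 1.33 against 430 and 742. The vector signal was at least 248-fold higher than the CL1-5 control signal, which lay below the floor. The limma difference (CL1-5 minus CL1-0) was -8.23 on the log2 scale, with a 95% confidence interval from -9.16 to -7.29 and a Benjamini-Hochberg adjusted p of 0.00496. These values are a description, since NEFH passed the filter only through CL1-0 and the floor narrowed its gap within CL1-5.

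MAP2, which binds and stabilises dendritic microtubules, read 5.05 and 2.64 in CL1-5 (control and G9a shRNA) and 1267 and 778 in CL1-0 (vector and HA-G9a). Both CL1-5 signals were below the filter and both CL1-0 signals far above it, and the second probe set split in the same way, at 1.37 and 0.914 against 327 and 301. The limma difference was -7.92 on the log2 scale (95% confidence interval -8.98 to -6.85, adjusted p = 0.00519), a description for the same reasons. Of the genes tested, 0.0358% had a larger absolute difference between the lines than NEFH, and 0.0502% than MAP2.

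NTS encodes the precursor of neurotensin, a peptide stored in secretory granules. It read 2.94 and 1.79 in CL1-5, both below the floor, and 565 with the vector and 132 with HA-G9a in CL1-0. The lines did not overlap, and the vector signal was at least 169-fold higher than that of the CL1-5 control. The limma difference was -6.35 on the log2 scale (95% confidence interval -8.21 to -4.49, adjusted p = 0.0257), again a description. Both CL1-5 arrays were set to the floor, which gives the gene a spread of 0 within CL1-5 by construction. For NEFH and MAP2, 1 CL1-5 array each was set to the floor, which narrowed their gaps within CL1-5 to 0.114 and 0.589 on the log2 scale. With the floor at the 10th percentile their limma adjusted p were 0.0194 and 0.0109.

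CHGA, the chromogranin A gene of dense-core granules, read 9.69 and 6.45 in CL1-5, under the filter, and 49.3 and 44.3 in CL1-0. BEX1, a small X-linked protein expressed in brain, was measured on all arrays, at 34.3 and 20.9 in CL1-5 and 137 and 153 in CL1-0. For both genes each CL1-0 signal exceeded each CL1-5 signal. The limma differences were -2.57 for CHGA (95% confidence interval -3.47 to -1.66, adjusted p = 0.0372) and -2.44 for BEX1 (95% confidence interval -3.40 to -1.47, adjusted p = 0.0464). Both calls lay close to the threshold, and that of CHGA, which passed the filter only through CL1-0, is a description. Among 10 other settings of scaling, floor, filter, probe set rule or model, CHGA kept its call with the floor at the 50th percentile and with the median of all probe sets. BEX1 kept it with the stricter filter, which CHGA did not reach, and with the median of all probe sets. The CHGA adjusted p in limma ran from 0.0336 to 0.125 over these settings, and that of BEX1 from 0.0178 to 0.152.

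NEFL, the light neurofilament chain, did not pass the test (limma difference -2.82, 95% confidence interval -4.58 to -1.06, adjusted p = 0.114). It read 287 in the CL1-5 control, 1090 with the G9a shRNA, 4558 with the vector and 3433 with HA-G9a. Both CL1-0 signals exceeded both CL1-5 signals on all 3 NEFL probe sets, and the G9a shRNA signal stood between the CL1-5 control and CL1-0. The vector signal was 15.9-fold that of the CL1-5 control and 4.18-fold that of the G9a shRNA population.

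For the other genes the difference between the lines was small beside the spread within CL1-5. SNAP25, SYP and NEFM had limma differences of -1.21, -1.002 and -1.03, with adjusted p of 0.382, 0.367 and 0.591. Their 95% confidence intervals all included 0 and reached down to -2.94, -2.38 and -3.49. REST had a difference of 0.57 (95% confidence interval -0.83 to 1.97, adjusted p = 0.603). With any 1 of the 4 arrays left out, limma called 0 genes of the whole table, and the adjusted p of the 5 called genes ran from 0.11 to 0.434. Their differences kept their sign without the CL1-5 control, the G9a shRNA, the vector or the HA-G9a array. For each of these genes both CL1-5 signals lay below both CL1-0 signals, so leaving out 1 array could not turn the sign. The sizes for NEFH, MAP2 and NTS depend on the floor, since their CL1-5 signals lay at or near it: with the floor at the 10th or 50th percentile they were -9.10 or -6.39, -8.09 or -6.31, and -6.89 or -4.45. The NTS call was lost at the higher floor (limma adjusted p = 0.0840), beside 0.00749 to 0.299 over all its alternatives.

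**Figure D1:**
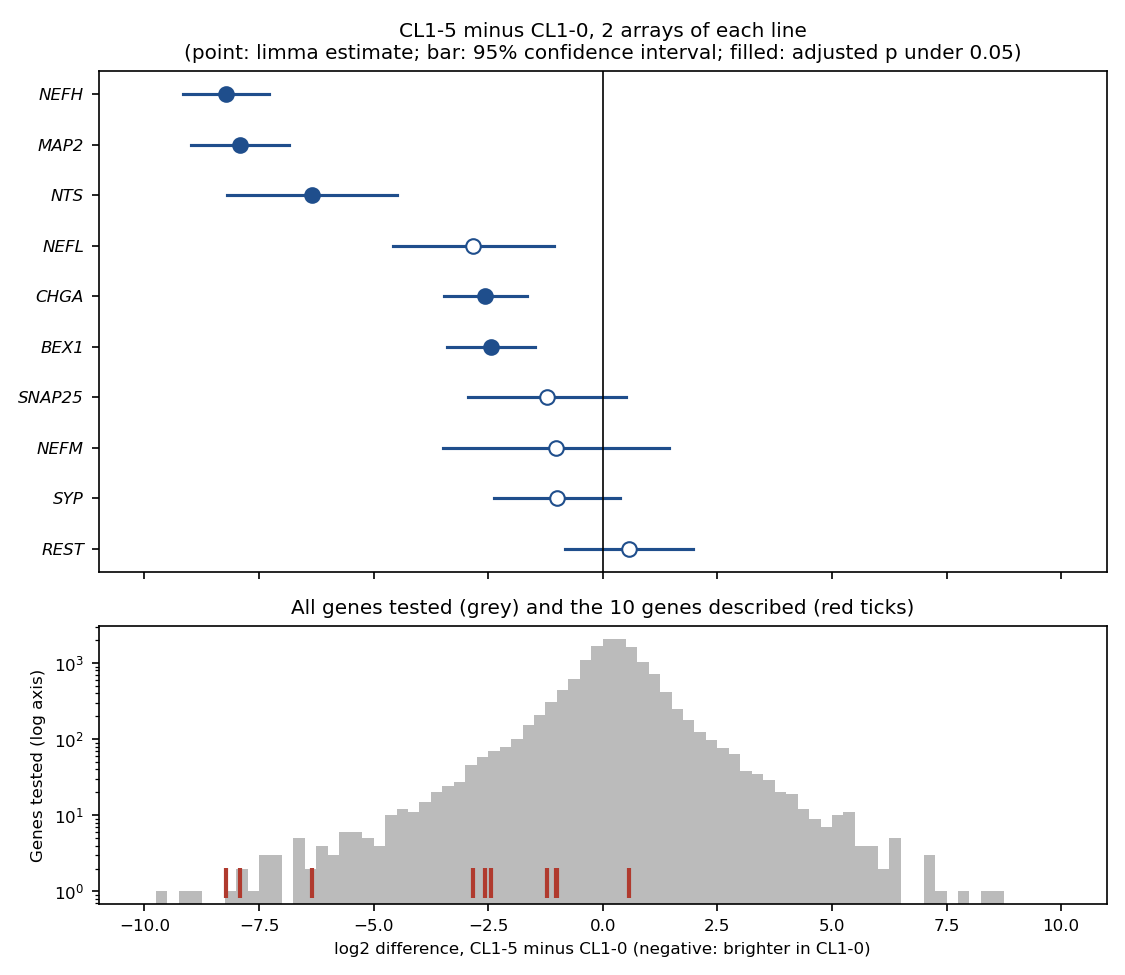
Upper plot, log2 difference of CL1-5 minus CL1-0 for each of the 10 genes (point, limma estimate over 2 arrays of each line; bar, 95% confidence interval; filled points have an adjusted p under 0.05). Of the filled points, NEFH, MAP2, NTS and CHGA passed the filter only through CL1-0 and are a description. Lower plot, the same difference for all 13953 genes tested, on a log count axis, with the 10 genes as red ticks: NEFH at -8.23, MAP2 at -7.92 and NTS at -6.35 lie at the far left edge and REST, at 0.57, near the centre.

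**Figure D2:**
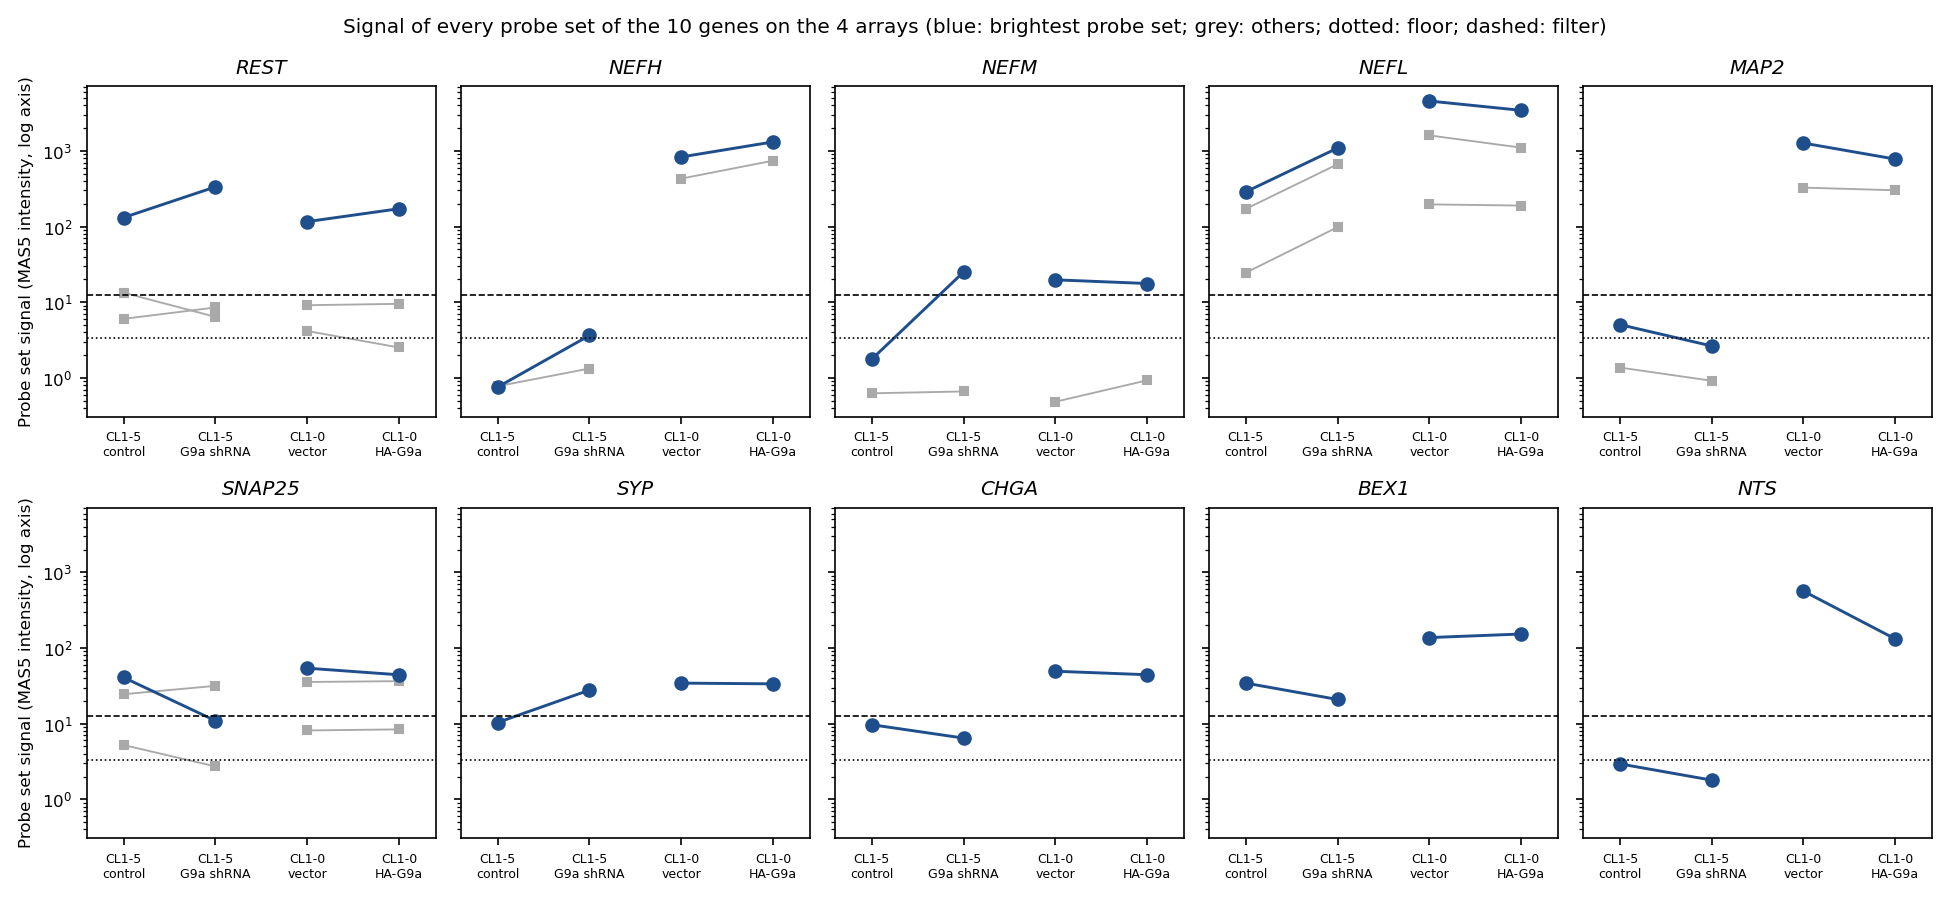
MAS5 signal (log axis) of all 19 probe sets of the 10 genes on the 4 arrays; lines join the 2 arrays of a cell line, blue marks the brightest probe set of a gene, the dotted line is the floor of 3.35 and the dashed line the filter of 12.5. NEFH, MAP2 and NTS sit below the filter in CL1-5 and above 100 in CL1-0, and the 3 NEFL probe sets run in parallel.

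Of the 5 genes called lower in CL1-5, NTS, CHGA, BEX1 and MAP2 have promoters in the RefSeq-derived table (GRCh38.p14), as do REST and SYP, which gives 6 of the 10 genes and 9 start sites. The 100 bases just before the start site are shown for those of the 5 called genes with a single listed start, because the granule genes NTS and CHGA share an arrangement there that BEX1 lacks. Capitals mark TGACNTCA, a cyclic AMP response element-like octamer, and TATAA, each searched on both strands with no overlap between them; the windows are chr12:85874195-85874294 on the plus strand for NTS, chr14:92923050-92923149 on the plus strand for CHGA and chrX:103064172-103064271 on the minus strand for BEX1, each printed 5′ to 3′.
NTS: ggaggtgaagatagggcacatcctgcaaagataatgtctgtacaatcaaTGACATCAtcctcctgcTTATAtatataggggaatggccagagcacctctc
CHGA: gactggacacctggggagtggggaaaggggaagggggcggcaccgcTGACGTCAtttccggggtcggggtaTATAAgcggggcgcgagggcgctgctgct
BEX1: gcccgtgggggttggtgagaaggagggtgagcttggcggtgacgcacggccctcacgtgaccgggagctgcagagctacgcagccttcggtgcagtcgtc

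In NTS the octamer began 51 bases before the start and in CHGA 54 bases before it, with the TATA-type match at 34 and 29 bases. In the 250 bases before the start, TGACNTCA occurred in 6.87% and TATAA in 18.9% of all 35116 promoters, and of the 9 windows of these genes only those of NTS and CHGA held either. The motifs were picked after the sequences had been seen, and a match is a description of the letters. The RE1 element was searched as CAGCACCNNGGACAGC on both strands. It was in 0.037% of all promoters and in 0 of the 9 windows, which says only that these letters are not in these windows. Its right part GGACAGC alone was found in 1 window, a REST promoter, against 4.76% of all promoters, and its left part CAGCACC in 0 windows, against 6.16%. The windows differed widely in CpG dinucleotides: NTS held 2 and the 3 MAP2 starts 4 to 8, CHGA 21, BEX1 19, SYP 31 and both REST starts 36, beside a median of 11 over all promoters.

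Reducing G9a in CL1-5 went with a higher NEFL signal and with mixed signals of the other genes. Of the 10 genes, 6 were measured in CL1-5, of which 3 (NEFM, NEFL and SYP) were at least 2-fold higher relative to the median gene and 2 (SNAP25 and BEX1) at least 2-fold lower. Over all 13045 genes measured there, 8.13% were higher and 7.76% lower by that size, 15.9% in all. NEFH, MAP2, CHGA and NTS stayed below the filter on both CL1-5 arrays, so these genes, above the filter in CL1-0, did not reach 12.5 with the G9a shRNA. Ratios of different probe sets of a gene had a pooled SD of 0.54 on the log2 scale, and of 0.30 where the brighter array reached 84.2. This SD covers disagreement of probe sets within the arrays and says nothing of the spread between cultures.

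All 3 probe sets of NEFL were above the filter on every array and ran alike. They read 287, 171 and 24.5 in the control and 1090, 666 and 98.1 with the G9a shRNA. The relative log2 ratios were 1.503, 1.54 and 1.58, closer to each other than that SD. Of the measured genes, 8.37% had a larger absolute ratio than NEFL. NEFM, the medium chain, whose gene is the protein-coding neighbour of NEFL on chromosome 8, read 1.76 in the control and 25 with the G9a shRNA. Its relative ratio of 2.48 depends on the floor, running from 0.63 to 3.41 with the floor at the 50th and 10th percentiles, and its second probe set was below 1 on all arrays.

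SYP, which encodes synaptophysin, a membrane protein of synaptic vesicles, read 10.4 and 27.8 in the CL1-5 populations, a relative log2 ratio of 1.004. It stood just at the 2-fold threshold, and was short of it after quantile normalization at 0.95. SNAP25, a SNARE protein of vesicle fusion, read 40.8 in the control and 10.9 with the G9a shRNA, a relative log2 ratio of -2.32. Its other measured probe set read 24.5 and 31.6, a relative ratio of -0.05, so the SNAP25 probe sets disagreed. BEX1 read 34.3 and 20.9, a relative ratio of -1.14 that was -0.72 as deposited, within 2-fold.

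HA-G9a in CL1-0 left 9 of the 10 genes, all of them measured, within 2-fold of the vector. The exception was NTS, whose signal was 565 in the vector population and 132 in the other, a relative log2 ratio of -2.02. Over all 12791 genes measured, 3.74% were at least 2-fold lower and 5.46% higher, 9.21% in all, and 2.38% had a larger absolute ratio than NTS. NTS has 1 probe set on the array, so no second probe set bears on this ratio. Under the 9 alternative settings its ratio stayed between -2.10 and -2.01.

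The next largest ratios with HA-G9a were 0.74 for NEFH, 0.65 for REST and -0.62 for MAP2. Both NEFH probe sets read higher with HA-G9a (831 to 1314 and 430 to 742, relative ratios 0.74 and 0.87), under 2-fold. The MAP2 probe sets differed, at -0.62 and -0.03. NEFL read 4558 and 3433 in the same order, a relative ratio of -0.33, with -0.45 and 0.03 on its other probe sets. NEFM (-0.08), SNAP25 (-0.21), SYP (0.05), CHGA (-0.07) and BEX1 (0.24) had ratios smaller than the SD of 0.51 between probe sets of a gene.

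**Figure D3:**
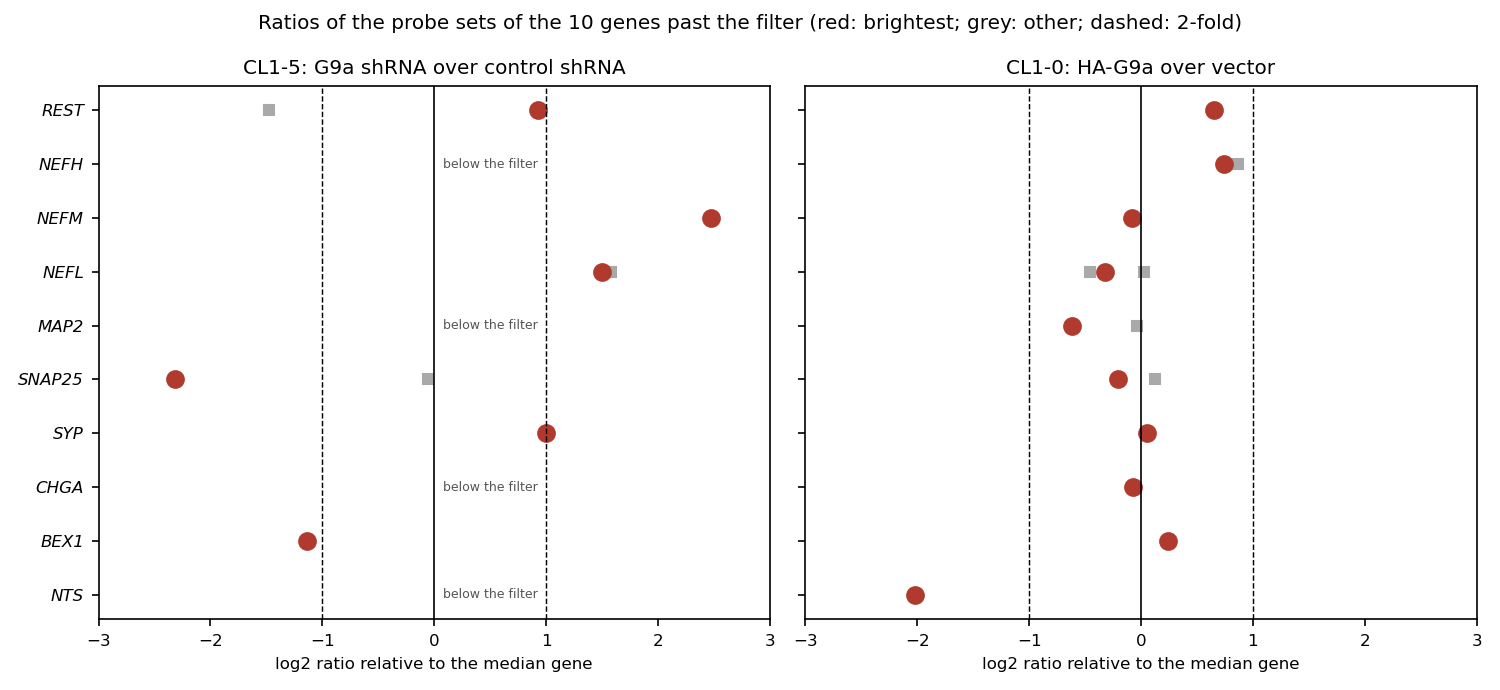
Relative log2 ratio of each probe set of the 10 genes that passed the filter, for the G9a shRNA in CL1-5 (left) and HA-G9a in CL1-0 (right); red marks the brightest probe set, grey the others, and dashed lines stand at 2-fold. The 3 NEFL probe sets cluster at 1.503 to 1.58 on the left, and NTS stands alone at -2.02 on the right.

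REST itself read 131 and 334 in CL1-5 (control and G9a shRNA) and 116 and 172 in CL1-0 (vector and HA-G9a). Both altered populations were brighter than their own control, although G9a was lowered in one and raised in the other. The relative log2 ratios were 0.93 and 0.65, under 2-fold, and 1.35 and 0.57 as deposited. This rests on 1 probe set. Of the other REST probe sets, one read 13.3 and 6.40 in CL1-5, a relative ratio of -1.48, and the remaining one stayed below the filter on all arrays. Signals of REST and of the other genes did not keep 1 order: the array with the brightest REST signal, the G9a shRNA array, also held the highest NEFM signal and the lowest SNAP25, CHGA and BEX1 signals of the 4 arrays. The other measured SNAP25 probe set was lowest in the CL1-5 control (24.5) and read 31.6 with the G9a shRNA. By the 4 log2 signals, each centred on the gene's mean, the genes most like REST were NEK6, INF2 and TRADD (distances of 0.15, 0.22 and 0.25 on the log2 scale), of 1419 genes with a mean above 84.2 and a spread at least that of REST. They are named only for this likeness over 4 arrays.

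Most genes of REST's corepressor complexes were within 2-fold in each comparison. All 22 on the array, of 23 listed, were above the filter on every array. With the G9a shRNA 1 of 22 was at least 2-fold lower, EHMT2 itself, and 0 were higher, and the median relative log2 ratio was 0.02. With HA-G9a 1 of 22, again EHMT2, was higher and 0 lower, with a median of -0.10, and both medians stand beside 0 for all genes. Of all genes measured, 15.9% passed 2-fold in either direction with the G9a shRNA and 9.21% with HA-G9a. The largest ratios beside EHMT2 were those of CDYL, a chromodomain corepressor that binds REST (677 to 457 with the G9a shRNA, -0.99), CTDSP1, a phosphatase that stabilises REST (159 to 358, 0.76), and PHF21A, a reader protein of the KDM1A complex (67.0 to 137, 0.62). KDM1A read 385 and 635 in CL1-5 and 625 and 497 in CL1-0, and RCOR1, which encodes CoREST, 200 and 398 in CL1-5 and 297 and 210 in CL1-0. A second measured RCOR1 probe set had the opposite sign in CL1-5. Between the lines, 1 of 22 was at least 2-fold higher in CL1-5 (SMARCA4, 1.22) and 2 lower (RCOR2, -1.71, and EHMT2, -2.55), with a median of 0.02, and limma called 0 of them (2, RCOR2 and SMARCA4, at an unadjusted p under 0.05). Of all genes tested, 15.3% were higher and 8.51% lower by that size. The EHMT2 difference includes the arrays in which this gene was lowered (CL1-5) or raised (CL1-0) by the constructs. Its control signals were 376 in CL1-5 and 420 in CL1-0.

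Most other neuronal cytoskeleton genes did not follow NEFL. Of 13 measured with the G9a shRNA, 1 (MAPT, the tau gene) was at least 2-fold higher and 4 were lower, with a median relative ratio of -0.37. Over all genes measured, 8.13% were higher and 7.76% lower. MAPT read 67.9 and 182 in CL1-5 (1.005) and 134 and 65.8 in CL1-0 (-0.94), with 0 measured probe sets of opposite sign in either line. The lower ones were TUBB2B, a neuronal beta tubulin (63.5 to 13, -2.71), DPYSL3 and DPYSL2, both collapsin response mediators (75.5 to 16.9, -2.58, and 561 to 303, -1.31), and MAP1B (630 to 383, -1.14). TUBB2B read 359 and 404 in CL1-0. With HA-G9a, 2 of 14 were higher, INA, the neurofilament partner alpha-internexin (167 to 337, 1.09), and GAP43, a growth cone protein (9.23 to 19.0, 1.13), and 0 were lower, with a median of 0.02. Of all genes measured there, 5.46% were higher and 3.74% lower. Between the lines, 5 of 15 tested were at least 2-fold lower in CL1-5 and 0 higher, against 8.51% and 15.3% of genes. Their median difference was -0.70 beside 0.23 for all genes, and limma called 0 of them.

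Of the other synaptic vesicle and SNARE genes, 14 were measured in each comparison. The G9a shRNA array had 2 of them lower and 0 higher, against 7.76% and 8.13% of all genes measured, and their median was -0.23. The lower ones were CPLX1, a complexin that clamps SNARE complexes (33.5 to 8.61, -2.38), and SYNGR1, a synaptogyrin (189 to 88.3, -1.52), of whose 3 measured probe sets 1 had the opposite sign. SYNGR2, its widely expressed relative, and RAB3A, a vesicle GTPase, read 169 to 434 (0.94) and 23.1 to 58.2 (0.91). With HA-G9a all 14 were within 2-fold, with a median of 0.06, while 9.21% of all genes measured passed it. In the line comparison, 3 of 14 were at least 2-fold lower in CL1-5 and 1 higher, against 8.51% and 15.3% of genes. Their median difference was 0.24 beside 0.23 for all genes, and limma called 0 of them.

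Of the other granule and neuropeptide genes, 12 were measured with the G9a shRNA, of which 2 (NPY and SCG5) were higher and 3 (CHGB, GAL and SCG3) lower, with a median of -0.22. Over all genes measured, 8.13% were higher and 7.76% lower. SCG3, a granin, read 32 and 6.56 (-2.71), and GAL, the galanin gene, 179 and 43.4 (-2.47). The secretogranins and related granule proteins were mixed: CHGB (-1.84) and SCG2 (-0.64) had lower relative signals, and SCG5 (1.79) and VGF (0.45) higher ones. With HA-G9a 8 were measured, of which 1 (CALCA) was higher and 1 (NPY) lower, against 5.46% and 3.74% of all genes, with a median of 0.63. CALCA read 3.21 and 16.5 and NPY 17.2 and 1.37 there, both close to the filter. Between the lines, limma called 0 of the 13 tested. In CL1-5, 4 were at least 2-fold higher and 1 lower, against 15.3% and 8.51% of genes. Their median difference was 0.07 beside 0.23 for all genes.

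Of the 9 other BEX and TCEAL genes measured in CL1-5, the family of BEX1, 2 (BEX4 and TCEAL3) were at least 2-fold lower with the G9a shRNA and 0 higher, with a median of -0.83. Over all genes measured, 7.76% were lower and 8.13% higher. BEX4 read 25.1 and 8.37 (-2.01), TCEAL3 79.7 and 47.7 (-1.16). BEX2 read 69.2 and 51.7 in CL1-5 and 456 and 224 in CL1-0, and TCEAL9 535 and 376 in CL1-5 and 2622 and 1917 in CL1-0. With HA-G9a 0 of 8 passed 2-fold, against 9.21% of all genes measured, with a median of -0.38. Between the lines, 5 of the 9 tested were at least 2-fold lower in CL1-5 and 1 higher, against 8.51% and 15.3% of genes. Their median difference was -1.15 beside 0.23 for all genes. Of these, limma called TCEAL9 lower in CL1-5 (difference -2.32, adjusted p = 0.0489) and BEX5 higher (3.76, adjusted p = 0.0336). BEX5 was below the filter in CL1-0, so it was tested only through CL1-5, and BEX2, at -2.42, had an adjusted p of 0.0686.

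**Figure D4:**
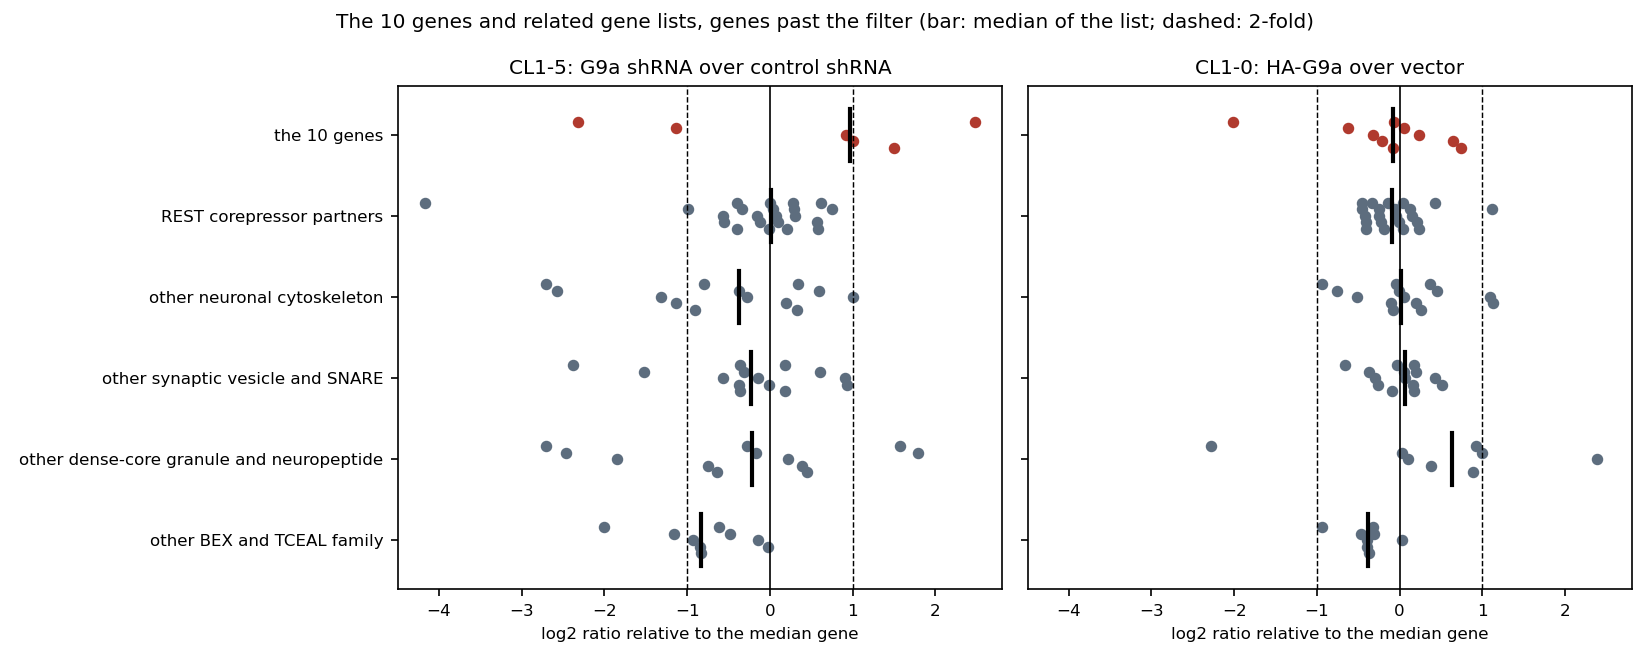
Relative log2 ratio of each gene past the filter, for the 10 genes (red) and 5 related gene lists (grey), with the G9a shRNA in CL1-5 (left) and HA-G9a in CL1-0 (right); black bars are list medians and dashed lines stand at 2-fold. The corepressor list centres on 0 in both plots with EHMT2 at -4.16 and 1.12, and all 9 other BEX and TCEAL genes measured lie left of 0 with the G9a shRNA.

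Markers of other cell types were read beside these results. Of 8 neuroendocrine markers, 5 reached the filter on any array, and the summed signal of all 8 ran from 1400 in the CL1-5 control to 4277 with the vector. UCHL1 gave most of it (1143 and 2519 in CL1-5, 4192 and 3585 in CL1-0), and in the CL1-5 control ENO2 (156) and DLL3 (82.8) gave most of the rest. The transcription factor INSM1 was below the floor on all arrays, as was the peptide gene GRP. Of 10 neuron markers, 6 reached the filter on any array, with sums from 85.9 to 186. The RNA-binding genes ELAVL3 and ELAVL4 read below the floor on both CL1-5 arrays and 36.3 and 33.5, and 19.4 and 29.7, in CL1-0. Glial markers GFAP and S100B were below the floor on all arrays, and the sum of 6 glial markers ran from 77.6 to 330. Summed signals on the CL1-5 control, G9a shRNA, vector and HA-G9a arrays were 3750, 2992, 686 and 2391 for 7 epithelial markers. They were 40.3, 79.0, 451 and 173 for 7 fibroblast markers and 483, 103, 44.6 and 32.7 for 6 endothelial markers. For 5 leukocyte markers they stayed between 13.6 and 25.5. The endothelial sums were higher in CL1-5 and the fibroblast sums in CL1-0. PECAM1 gave most of the endothelial sums in CL1-5 (318 and 81.5), and COL3A1 most of the fibroblast sum with the vector (330). Of 5 endothelial genes tested between the lines, 3 were at least 2-fold higher in CL1-5 and 1, TEK (-1.61), lower. Of 4 fibroblast genes tested, 2 were at least 2-fold lower in CL1-5 and 0 higher. Over all genes tested, 15.3% were higher and 8.51% lower in CL1-5 by that size. The epithelial sums were higher in CL1-5 through KRT18 and KRT8, while EPCAM (-0.75) and CLDN4 (-1.24) had lower means there, and the list's median difference was 0.10 beside 0.23 for all genes. The part of any of these marker groups in the differences above was not tested.

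The labels give a type II alveolar cell as the cellular basis of the tumour. Of 8 type II markers read, 6 reached the filter on any array, and the highest signal was 60.2, for NKX2-1 with HA-G9a. The surfactant gene SFTPC read between 6.72 and 33.5, so its defining markers were low in all 4 populations.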

How the data were processed

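RNA from 4 transduced populations was read on 1 array each. The deposited intensities are 1 linear MAS5 signal per probe set and array, per the submitters' processing notes; its settings and scaling were not given in the sources used here. Of 54675 probe sets, 41097 had 1 gene symbol, updated by Entrez identifier against RefSeq (GRCh38.p14; 41043 matched), 1801 had several and 11777 were unnamed; 58 Y-linked or XIST probe sets were left out. Signals were floored at 3.35 and log2-transformed; a gene is its brightest probe set. Named are all 10 genes and, of each related list, up to 4 genes with the largest absolute relative ratio; further list genes (KDM1A, RCOR1, RCOR2, SMARCA4, MAPT, INA, GAP43, SCG2, SCG5, CHGB, VGF, BEX5 and the marker genes) were named after their values were seen. The genes and lists were chosen with earlier results of these data known.

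The lines were compared with limma 3.58.1 (R 4.3.3; lmFit, eBayes, Benjamini-Hochberg at 0.05; genes above the filter on any array). Tested on simulated data for 13953 genes of this comparison, it recovered 0 of 50 changes of 1 and 0 of 50 of 2 on the log2 scale, 36 of 50 of 4 and 48 of 50 of 6. Other steps used Python 3.11.15, pandas 2.3.3 and NumPy 2.4.6. Alternatives were other scalings, floors, filters and probe set rules, a model with G9a arm, and leaving out each array.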

Additional observations from a re-analysis of the deposited data

Results flagged for a closer look

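Set as the array with more G9a over the array with less, 3 of the 6 genes measured in both lines had ratios of opposite sign in CL1-5 and CL1-0. The difference was not tested in any of them, since each ratio comes from 1 array against 1. The share of all measured genes with opposite signs was not counted, so 3 of 6 is not read as a trait of these genes. REST had relative log2 ratios of -0.93 in CL1-5 and 0.65 in CL1-0, so it read higher in both altered populations. SNAP25 had ratios of 2.32 in CL1-5 and -0.21 in CL1-0; with the median of its probe sets the latter was 0.11, and the signs were then no longer opposite. SYP had ratios of -1.004 in CL1-5 and 0.051 in CL1-0, the latter -0.03 as deposited. The CL1-0 ratios of SNAP25 and SYP were smaller than the SD of 0.51 between probe sets of a gene.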

How the results depend on the processing

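With the G9a shRNA, the count of the 10 genes at least 2-fold lower was 2, and 1 with the ratios as deposited, where 4 were higher (16.8% of genes). It was 3 with the median of all probe sets. The count higher was 3, 4 with no filter, and 1 with the floor at the 50th percentile, where NEFM read 0.63 and SYP 0.78. With the stricter filter only REST and NEFL were measured, 1 higher and 0 lower. NEFL read between 1.503 and 1.92 in all 9 alternatives. REST read -1.06 with the median of its probe sets, of which only 1 is bright. With HA-G9a, the counts (0 higher, 1 lower) held in all 9.

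Between the lines, 5 genes were called lower in CL1-5. With median, trimmed-mean or quantile scaling, either other floor, the G9a arm as a term, or arrays centred on the median gene (added after seeing the data), 3 were called: NEFH and MAP2 with NTS, or with CHGA at the 50th percentile floor. With no filter on low values, which added genes at the floor, 0 were called, and the adjusted p of NEFH was 0.0726, beside 0.000574 to 0.299 over all its alternatives. Leaving out 1 array gave 0 to 0 calls, with 7 to 9 genes at least 2-fold lower. The count at least 2-fold lower was 9 in the reported fit and 5 of 6 measured with the stricter filter. It was 7 with the floor at the 50th percentile, 8 of 9 measured with the median of all probe sets, and 8 with the control populations only. No sign of a called gene turned in any alternative. Without 1 array it could not turn, because the signals of CL1-5 and CL1-0 did not overlap for these genes. The fit as deposited is the reported fit. No pairing by replicate was possible because the labels give no replicate number that pairs arrays. The G9a arm as a term instead grouped the arrays with more G9a (CL1-5 control and HA-G9a) and those with less (G9a shRNA and vector). With 1 array per group and no detection calls, differences of dim genes (CHGA, SYP, NEFM, SNAP25) are the least certain.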

Other observations

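Some genes of neural and neuroendocrine cells stood in the opposite direction between the lines. ENO2, the neuron-specific enolase gene, read 156 and 165 in CL1-5 (control and G9a shRNA) and 0.559 and 6.71 in CL1-0 (vector and HA-G9a). MBP, the myelin basic protein gene, read 163 and 259 in CL1-5 and 1.01 and 0.528 in CL1-0. GAL read 179 and 43.4 in CL1-5 and 3.93 and 4.33 in CL1-0. All 3 were below the filter in CL1-0 and passed it only through CL1-5, so these signals are given as a description with no test. ENO2 and MBP were singled out after their values had been seen.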
